A study of Mus musculus with 7 samples.

Results

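Fibronectin was measured in circles of brain tissue placed on vascular amyloid in PDAPP mice given the anti-Aβ antibody 3D6 or a control IgG. It is 1 of the 31 probes of the antibody panel and 1 of its 25 targets. The other probes are 3 housekeepers and 3 negative control antibodies, which bind no mouse brain protein by design. In the GeoMx protein assay, ultraviolet light frees the oligonucleotide tags of bound antibodies from a selected area, and the tags are then counted. All values below are the log2 of the fibronectin count over the geometric mean of the 3 negative controls in the same region, called the log2 ratio, so that 0 is the level of the negative controls and each further unit doubles it.

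All 7 mice carried the PDAPP transgene, a mutant human amyloid precursor protein, driven by the PDGF-B promoter, and came from an inbred line, of which males and females were used. The 3 IgG-treated mice (29, 37 and 49) received an IgG2a control at 50 mg/kg in 2 weekly doses, and the 4 3D6-treated mice (72, 77, 81 and 83) received 3D6, an IgG2b, at 25 mg/kg in 1 weekly dose. Treatment lasted 3 months, from 23 to 26 months of age, so antibody, isotype, dose and schedule change together between the groups. The sample titles call the 3 control mice untreated while their descriptions name IgG treatment, which was followed here, so what these mice received rests on the descriptions and the study's methods. No mice without amyloid were analysed here. Circles of 100 μm were chosen on amyloid and laminin staining. Each mouse contributed 12 from the leptomeninges and 12 from its penetrating vessels, and 166 regions hold values, since 2 leptomeningeal regions of mouse 37 do not.

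Fibronectin is a large adhesive glycoprotein. It circulates in plasma in a soluble form, and fibroblasts, endothelial cells, smooth muscle cells and macrophages secrete a form that is assembled into fibrils of the extracellular matrix, to which cells bind through integrins. In the healthy brain it lies mainly in and around the vessel wall and in the meninges, and it is laid down in wounds and in fibrotic tissue. The authors' panel lists it under fibroblasts and stroma. No other fibroblast protein was on the panel, so the cells around it could be examined only through leukocyte, macrophage, endothelial and smooth muscle markers.

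Total counts per region ran from 2571 to 254884 with a median of 13466. The few-nuclei warning of the instrument was carried by 43 regions, among them all 10 leptomeningeal regions of mouse 37. In 6 regions, all of mouse 37, the negative controls exceeded 10 times the median of all regions. The smooth muscle marker SMA averaged 8.61 in the leptomeninges and 6.49 on penetrating vessels over all regions, far above the negative controls. The endothelial markers CD31 and CD34, at 3.70 or more at either site, also lay far above them. Of the T cell markers, CD4, CD28, FOXP3 and PD-1 averaged below the negative controls. CD3e (0.89 in the leptomeninges and 1.35 on penetrating vessels), CD8a (0.31 and 0.18), CTLA4 (2.20 and 1.26) and granzyme B (4.64 and 4.69) averaged above them. The epithelial keratin probe PanCk, which has no source in these vessels, averaged 1.04 and 0.80.

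In the leptomeninges, fibronectin stood above the negative controls in every region of either group and was much higher in 3D6-treated mice. The mouse means of the IgG group were 1.43 ± 0.47 in mouse 29 (SD over 12 regions), 1.77 ± 0.32 in mouse 37 (10 regions) and 1.44 ± 0.51 in mouse 49 (12 regions). Those of the 3D6 group were 4.56 ± 1.04 in mouse 72, 4.15 ± 0.88 in mouse 77, 2.88 ± 1.11 in mouse 81 and 5.15 ± 0.86 in mouse 83, each over 12 regions. The groups did not overlap, and the lowest 3D6-treated mouse, 81, lay 1.11 above the highest IgG-treated mouse, 37. Means of the 3D6 group higher than all means of the IgG group were seen for 5 of 25 targets (20%).

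As counts, the median region held 51.4, 71.6 and 51.8 fibronectin tags in IgG-treated mice 29, 37 and 49. It held 442 in mouse 72, 331 in mouse 77, 87.1 in mouse 81 and 353 in mouse 83. On log2 counts, with no division, the groups differed by 2.03 (adjusted p = 0.011 in limma), so most of the difference was in the fibronectin counts themselves. The negative controls, which divide them, had a mean log2 count of 4.46 ± 0.19 in the IgG group and 3.84 ± 0.39 in the 3D6 group (SD over mice).

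**Figure D1:**
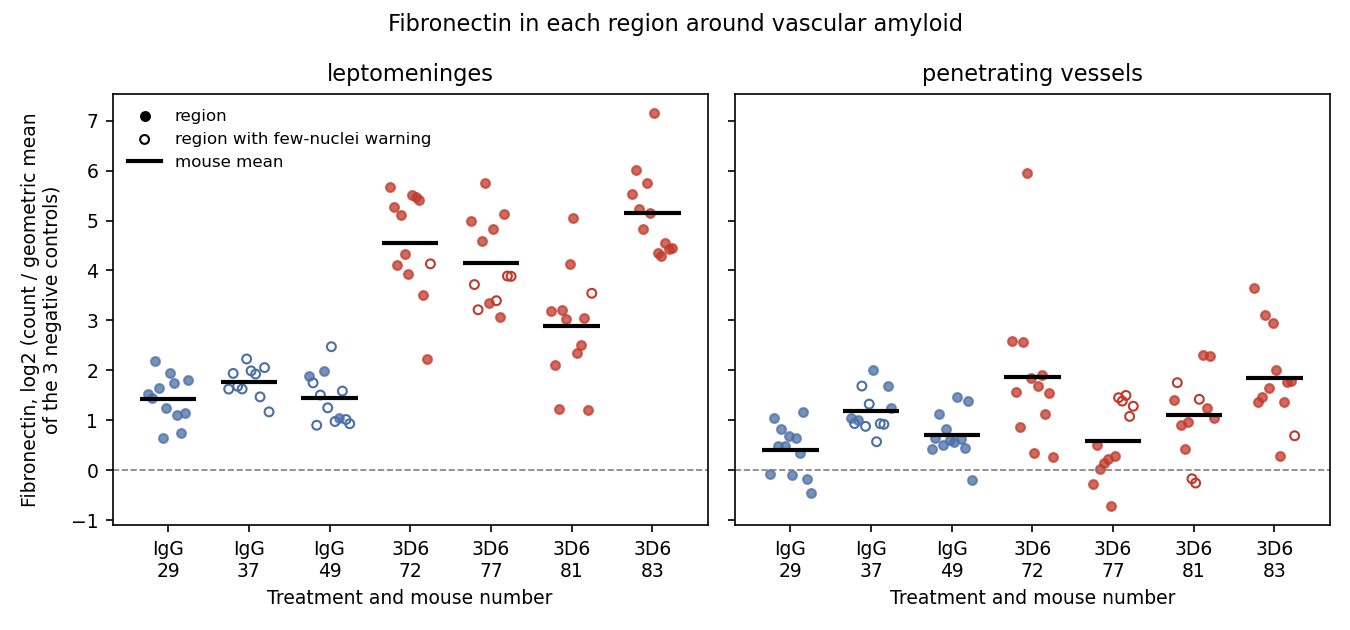
Fibronectin in each of the 166 regions (points; open where the region carries the few-nuclei warning) with the mean of each mouse (bar), for 3 IgG-treated and 4 3D6-treated mice at each site; the y axis is the log2 ratio to the 3 negative controls and the dashed line at 0 is their level. In the leptomeninges 43 of 48 regions of 3D6-treated mice lie above the highest region of IgG-treated mice, against 9 of 48 on penetrating vessels.

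The mean of the 3D6 group was 4.18 ± 0.96 (SD, n = 4) and that of the IgG group 1.55 ± 0.19 (n = 3), which is 18.2 and 2.92 times the negative controls. The difference of 2.64 on the log2 scale (SE 0.49, 95% interval 1.56 to 3.71), or 6.22-fold, passed the test in limma, a linear model with moderated variances fitted on all 25 targets (adjusted p = 0.0033). It was the largest of the 25 differences, of which 5 passed (20%), and it lay 2.06 above their median of 0.57. When all 35 splits of the 7 mice were enumerated, the exact two-sided permutation p was 0.057, where 0.029 is the smallest that 3 against 4 mice can give.

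An unmoderated test with Holm-Sidak adjustment over the 25 targets did not pass (adjusted p = 0.13). In limma the same call was made without the mice in doubt. The difference was 2.75 (adjusted p = 0.013 in limma) without mouse 37, the one with few nuclei and high background, and 3.07 (adjusted p = 0.00013) without mouse 81. Without the regions of few nuclei it was 2.74 (adjusted p = 0.0044). That setting removes mouse 37 from this site and 9 of the 12 regions of mouse 49. The warning fell on 19 of 34 leptomeningeal regions of the IgG group and 7 of 48 of the 3D6 group, so this check rests on few IgG regions. Within the 3 runs that the labels name, each of which holds mice of both groups, the difference was 2.57, 2.38 and 3.12. Whether more fibronectin in a given stretch of vessel wall or more wall in the circle gave the difference cannot be told apart.

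Region by region, the highest leptomeningeal value of an IgG-treated mouse was 2.47. In mice 77 and 83 all 12 regions exceeded it, in mouse 72 11 did, and in mouse 81 8 did. Mouse 81 ranged from 1.20, within the values of the IgG group, to 5.05, above the mean of mouse 72. The highest region of all, 7.15 in mouse 83, is 142 times its negative controls and holds 1519 fibronectin tags.

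On penetrating vessels fibronectin was close to the negative controls and the groups overlapped. The IgG-treated mice had means of 0.41 ± 0.51 (mouse 29), 1.19 ± 0.42 (mouse 37) and 0.70 ± 0.45 (mouse 49), over 12 regions each. The 3D6-treated mice had means of 1.86 ± 1.49 (mouse 72), 0.58 ± 0.74 (mouse 77), 1.11 ± 0.82 (mouse 81) and 1.84 ± 0.98 (mouse 83). Mice 72 and 83 lay above all IgG-treated mice, while mice 77 and 81 lay below mouse 37. In 5 of 36 regions of the IgG group and 4 of 48 of the 3D6 group, fibronectin fell below the negative controls.

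The group means were 0.77 ± 0.39 (n = 3) for IgG and 1.35 ± 0.62 (n = 4) for 3D6. The difference of 0.58 (SE 0.39, 95% interval -0.30 to 1.47, 1.50-fold) did not pass (adjusted p = 0.75 in limma, unadjusted p = 0.17). An exact permutation test gave p = 0.23. None of the 25 targets passed at this site (0%), with 2 at an unadjusted p under 0.05 in limma, and the interval still allows a 2.76-fold rise. The difference was 0.77 and 1.45 in the runs of mouse 49 and mouse 29 and -0.61 in that of mouse 37, and on log2 counts with no division it turned to -0.38 (adjusted p = 0.74). Mouse 37 holds 5 high-background regions at this site.

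Single regions of the 3D6 group nevertheless reached leptomeningeal levels. The highest region of the IgG group stood at 2.01, and 9 of the 48 regions of 3D6-treated mice exceeded it, 4 in mouse 83, 3 in mouse 72, 2 in mouse 81 and 0 in mouse 77. The furthest was region 17 of mouse 72, at 5.96 with 1241 tags and 126 nuclei, 62.0 times its negative controls. The other 11 penetrating regions of that mouse averaged 1.49 ± 0.78 and none passed 2.60. Without this region, a choice made after the values were seen, the group difference was 0.49 (adjusted p = 0.80 in limma).

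Each of the 7 mice had more fibronectin in the leptomeninges than on its penetrating vessels. The step was 1.03, 0.58 and 0.74 in IgG-treated mice 29, 37 and 49. It was 2.70, 3.58, 1.77 and 3.31 in 3D6-treated mice 72, 77, 81 and 83, so that the smallest step of a 3D6-treated mouse exceeded the largest of an IgG-treated mouse. Mouse 77 had the largest step with the lowest penetrating mean of its group and a leptomeningeal mean of 4.15, close to the 4.18 of the group, and the order of the 3D6-treated mice differed between the sites.

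In 3D6-treated mice the mean step was 2.84 (SE 0.29, 7.15-fold) and passed in limma on the paired differences (adjusted p = 6.3e-05), the largest of the 7 of 25 targets that passed (28%). In IgG-treated mice it was 0.78 (SE 0.33, 1.72-fold), with an unadjusted p of 0.042 and an adjusted p of 0.096, so it did not pass where 9 of 25 targets did (36%). Both SEs come from a variance shared by the groups. The SD of the step over mice was 0.22 in the IgG group and 0.80 in the 3D6 group, so the IgG call rests partly on the 3D6-treated mice. Divided by the housekeepers in place of the negative controls, the step of the IgG group was 1.75 and passed (adjusted p = 0.00044). The site step of the IgG group therefore depends on the reference, and its size ran from 0.60 to 1.75 over the settings.

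Ordered by level, the leptomeninges of 3D6-treated mice came first at 4.18, then those of IgG-treated mice at 1.55, the penetrating vessels of 3D6-treated mice at 1.35 and those of IgG-treated mice at 0.77. The middle pair overlapped, since the 1.43 to 1.77 of the IgG leptomeninges lay within the 0.58 to 1.86 of the 3D6 penetrating vessels, and so did the last pair.

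The treatment difference itself differed between the sites. The step was 2.06 larger in 3D6-treated than in IgG-treated mice (SE 0.44, 95% interval 1.06 to 3.05, adjusted p = 0.018 in limma), with an exact permutation p of 0.057. Of the 25 targets 7 passed in either direction (28%). Fibronectin had the largest positive difference, and that of SMA, at -2.20 (adjusted p = 0.042 in limma), was larger in size. The call was lost on division by the housekeepers (1.17, adjusted p = 0.22), in the unmoderated test with Holm-Sidak adjustment, in a fit that blocked on the run (2.12, adjusted p = 0.060) and without mouse 29 (2.18, adjusted p = 0.057). The housekeepers were not level themselves. Their mean log2 count was 10.92 on penetrating vessels of the IgG group, with mouse 37 at 11.90, and 9.83 in its leptomeninges. In the 3D6 group it was 9.92 and 10.05. The part of these levels in the lost call was not tested. The median of the 25 targets also shifted, by 0.63, and fibronectin lay 1.42 above it. Another reference shifts every target alike and so cannot change this gap.

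**Figure D2:**
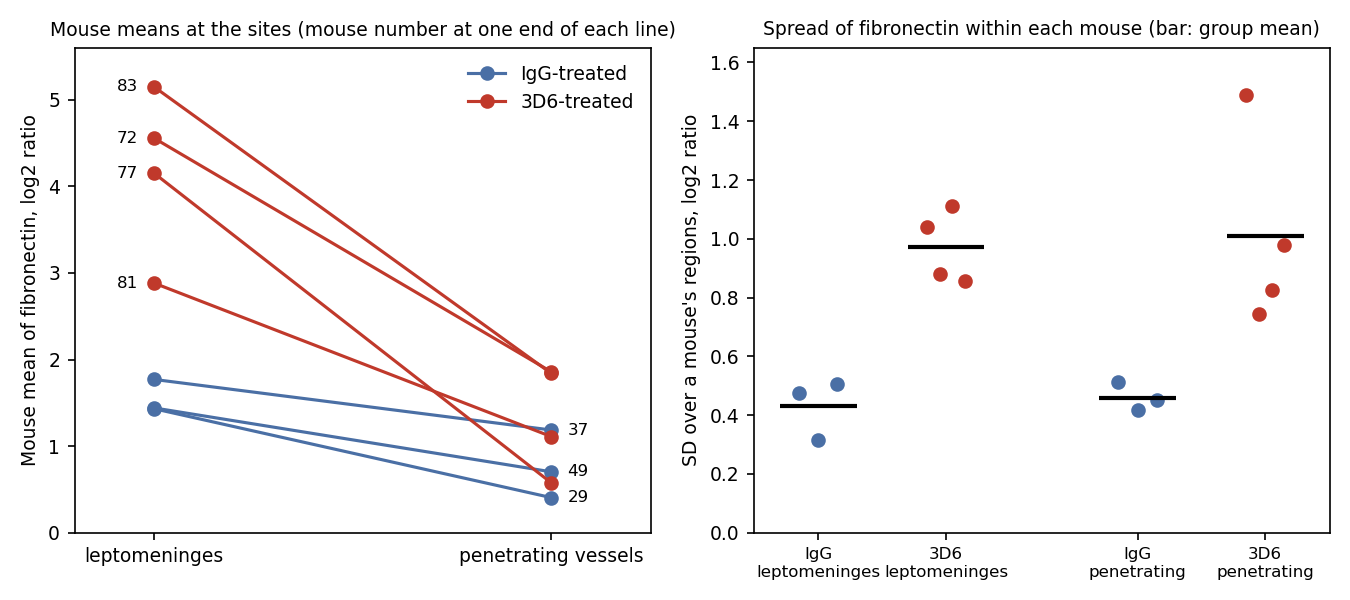
Left, the mean log2 ratio of fibronectin of each mouse (y axis) in the leptomeninges and on penetrating vessels, joined within a mouse; right, the SD of the log2 ratio over a mouse's regions (y axis), with the group mean as a bar. All 7 lines fall from the leptomeninges to the penetrating vessels, and every 3D6-treated mouse has a larger SD than every IgG-treated mouse at both sites.

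Fibronectin was also more uneven within 3D6-treated mice, at both sites. In the leptomeninges the SD over a mouse's regions was 0.47, 0.32 and 0.51 in IgG-treated mice 29, 37 and 49, and 1.04, 0.88, 1.11 and 0.86 in 3D6-treated mice 72, 77, 81 and 83. On penetrating vessels it was 0.51, 0.42 and 0.45, and 1.49, 0.74, 0.82 and 0.98. The groups did not overlap at either site. Of the 25 targets, 6 in the leptomeninges (24%) and 2 on penetrating vessels (8%) had SDs of the 3D6 group above all those of the IgG group. The rise of fibronectin was the largest of the 25 at each site. On penetrating vessels the mean SD of SMA fell by more, with a difference of -0.68.

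The mean SD went from 0.43 to 0.97 in the leptomeninges, a difference of 0.54 (exact permutation p = 0.029, the smallest possible). On penetrating vessels it went from 0.46 to 1.01, a difference of 0.55 (exact permutation p = 0.057). Without region 17 of mouse 72 the penetrating difference was 0.37 (exact permutation p = 0.029, the smallest possible). Adjusted over the 25 targets, these p-values were 0.20 and 0.71, and neither passes. On log2 counts with no division the leptomeningeal difference was 0.35 (exact permutation p = 0.26) and the penetrating one was -0.066 (p = 0.97 in the same test). Mouse 37 holds 5 high-background regions on penetrating vessels, and its counts there ran from 30.3 to 2702. They ran from 8.02 to 24.0 in mouse 29 and from 7.76 to 41.1 in mouse 49. The part of those regions in the value with no division was not tested.

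The share of the variance that lay between mice and not within them was 7.87% in the leptomeninges of the IgG group and 46.8% in those of the 3D6 group. On penetrating vessels it was 39.2% and 21.0%. These shares rest on 3 and 4 mice and are given as a description. In 3D6-treated mice, then, the leptomeninges of one mouse differed from those of another about as much as regions within a mouse, while on penetrating vessels most of the variation was between regions.

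The number of nuclei differed more between runs than between the groups. Leptomeningeal regions held a median of 97, 11 and 17.5 nuclei in IgG-treated mice 29, 37 and 49, and 111.5, 23.5, 30.5 and 36.5 in 3D6-treated mice 72, 77, 81 and 83. Within each of the 3 runs (mice 29 and 72, mice 37 and 77, and mice 49, 81 and 83) the 3D6-treated mice had both more nuclei and more fibronectin than the IgG-treated mouse. Across runs this order did not hold, as mouse 29 had 97 nuclei and a fibronectin mean of 1.43, and mouse 83 had 36.5 nuclei and a mean of 5.15. The part of cell number in the group difference was not tested. Within mice, the correlation of fibronectin with log2 nuclei over leptomeningeal regions was 0.248 in the IgG group and 0.319 in the 3D6 group, positive in each of the 4 3D6-treated mice.

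On penetrating vessels the same correlation was 0.189 and -0.031, and here the mice parted. It was 0.536 in mouse 72 and -0.941 in mouse 77. In mouse 77 the 5 regions with the fewest nuclei, 11 to 18, had fibronectin values of 1.08 to 1.50, and the other 7 regions, with 28 to 52 nuclei, had values of -0.71 to 0.50. Its 12 regions share 1 section and 1 run, and the part of cell number in this pattern was not tested.

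Neighbouring regions were somewhat more alike than regions taken at large in most mice of either group, except in the leptomeninges of IgG-treated mice. In the leptomeninges the mean absolute difference between a region and its nearest neighbour was smaller than that over all pairs of regions in 4 of 4 3D6-treated mice (0.95 against 1.11 on average) and in 1 of 3 IgG-treated mice (0.54 against 0.51). On penetrating vessels it was smaller in 3 of 4 (0.92 against 1.12) and 3 of 3 (0.43 against 0.53). The gaps are small beside the SD within a mouse and were not tested.

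The study asked which immune proteins go with fibronectin, and the regions of one mouse let this be described with the differences between mice removed. Each r below is Pearson's correlation over the regions of a group once the mouse means were taken out, for 34 leptomeningeal and 36 penetrating regions of the IgG group and 48 of each kind in the 3D6 group. The regions of a mouse share a section, a run and a treatment, and all ratios share the negative controls as denominator, so the values are a description with no test. Over the other 24 targets the median r was 0.249 and 0.171 in the leptomeninges of the IgG and 3D6 groups and 0.207 and 0.106 on penetrating vessels, and single values are read against these medians.

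The clearest partners appeared on the penetrating vessels of 3D6-treated mice, where the treatment difference of fibronectin itself did not pass. CD45, the phosphatase carried by all leukocytes, had an r of 0.708 with fibronectin. In the single mice it was 0.770 (mouse 72), 0.603 (mouse 77), 0.594 (mouse 81) and 0.809 (mouse 83), high in all 4. F4/80, a marker of tissue macrophages, followed with 0.597, and with 0.633, 0.569, 0.444 and 0.888 in mice 72, 77, 81 and 83.

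CD11b, the integrin alpha chain of myeloid cells, followed at 0.445 but varied from 0.023 in mouse 81 to 0.783 in mouse 77. CD45 and F4/80 were the highest 2 of the 24 partners in this group under every setting, in either order, and each remained so when any 1 mouse was left out. Without the 2 regions farthest from the median, r was 0.567 for CD45 and 0.472 for F4/80, and without the highest region of mouse 72 alone 0.614 and 0.522. SMA stood at 0.114, near the median of the 24, with -0.502 in mouse 77 and 0.440 in mouse 83.

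The 9 penetrating regions above all regions of the IgG group, which are part of these correlations, varied in their CD45. In 3 of them, region 17 of mouse 72, region 13 of mouse 83 and region 21 of mouse 81, CD45 was the highest of the 12 regions of that mouse, and in the first 2 F4/80 was as well. Region 17 of mouse 72 had log2 ratios of 3.68 for CD45, 3.24 for F4/80 and 4.45 for CD11b. The remaining fibronectin-rich regions of mouse 72, 13 and 16, ranked only 9 and 7 for CD45 in that mouse, so a high fibronectin value did not always come with high CD45.

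**Figure D3:**
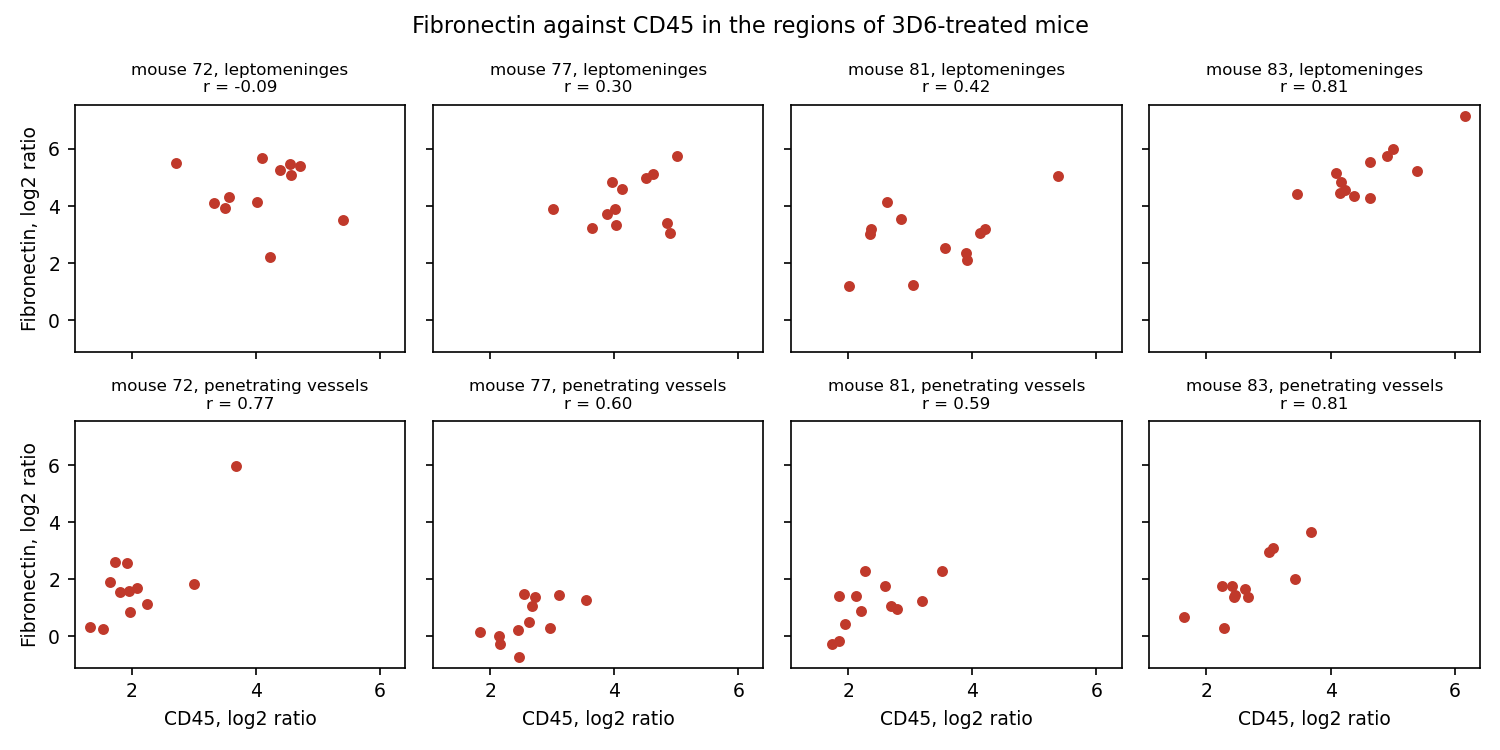
Fibronectin (y axis) against CD45 (x axis), both as log2 ratios to the negative controls, in the regions of each 3D6-treated mouse (points; 12 per panel), with the leptomeninges above and the penetrating vessels below. Pearson's r within a mouse runs from -0.087 to 0.808 in the leptomeninges and from 0.594 to 0.809 on penetrating vessels.

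In the leptomeninges of 3D6-treated mice the same proteins were weaker and less even partners. CD45 had an r of 0.346, with -0.087, 0.299, 0.420 and 0.808 in mice 72, 77, 81 and 83. F4/80 had 0.369, from -0.020 in mouse 72 to 0.633 in mouse 81, and CD11b 0.297, from -0.103 in mouse 72 to 0.786 in mouse 83. In mouse 72, then, none of the 3 went with fibronectin, and without that mouse the values were 0.494, 0.479 and 0.520. Whether the correlations differ between the sites was not tested.

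If the mouse means are not subtracted, the leptomeningeal values of the 3D6 group become 0.555 for CD45, 0.490 for F4/80 and 0.633 for CD11b. The CD11b value moved most, and without centring it counts differences between mice as well. The highest within-mouse partner there was granzyme B (GZMB), a protease of cytotoxic granules, at 0.504 and with 0.577, 0.737, 0.336 and 0.368 in mice 72, 77, 81 and 83. Its r was 0.430 to 0.569 without a mouse, but CD11b came first without mouse 72 or without centring, and CD4 without mouse 77. The lowest were CD14, an endotoxin co-receptor of monocytes, at -0.372, the T cell co-stimulator CD28 at -0.126 and the checkpoint receptor PD-1 at -0.108, of which the last 2 lay below the negative controls on average.

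The within-mouse order in IgG-treated mice is given as a description, since no partner correlation passed the test of a group difference given below. In the leptomeninges CD4 (0.550, but -0.066 in mouse 37), the dendritic integrin CD11c (0.414) and the endothelial CD31 (0.413) led, and CD28 (-0.157), CD14 (-0.124) and FOXP3 (0.006) were lowest. CD45, CD11b, F4/80 and SMA had r of 0.340, 0.305, 0.349 and 0.316, each positive in all 3 mice. Without the 2 most extreme regions CD45 was at 0.132. The CD4 probe averaged below the negative controls over all regions.

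On penetrating vessels of IgG-treated mice CD8a, the co-receptor of cytotoxic T cells, had the highest r (0.410), with CD45 (0.382) and F4/80 (0.351) next, CD11b at 0.301 and SMA at 0.321. The CD8a probe averaged 0.18 at this site over all regions, close to the negative controls. CD28 (-0.316), the granulocyte and monocyte probe Ly6G/Ly6C (-0.312) and CD4 (-0.160) were lowest. The CD45 value was carried by mouse 37, at 0.844, where mice 29 and 49 had 0.164 and 0.078, and without mouse 37 it was 0.120. That mouse holds the high-background regions at this site, and without those regions alone r with CD45 was 0.311.

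**Figure D4:**
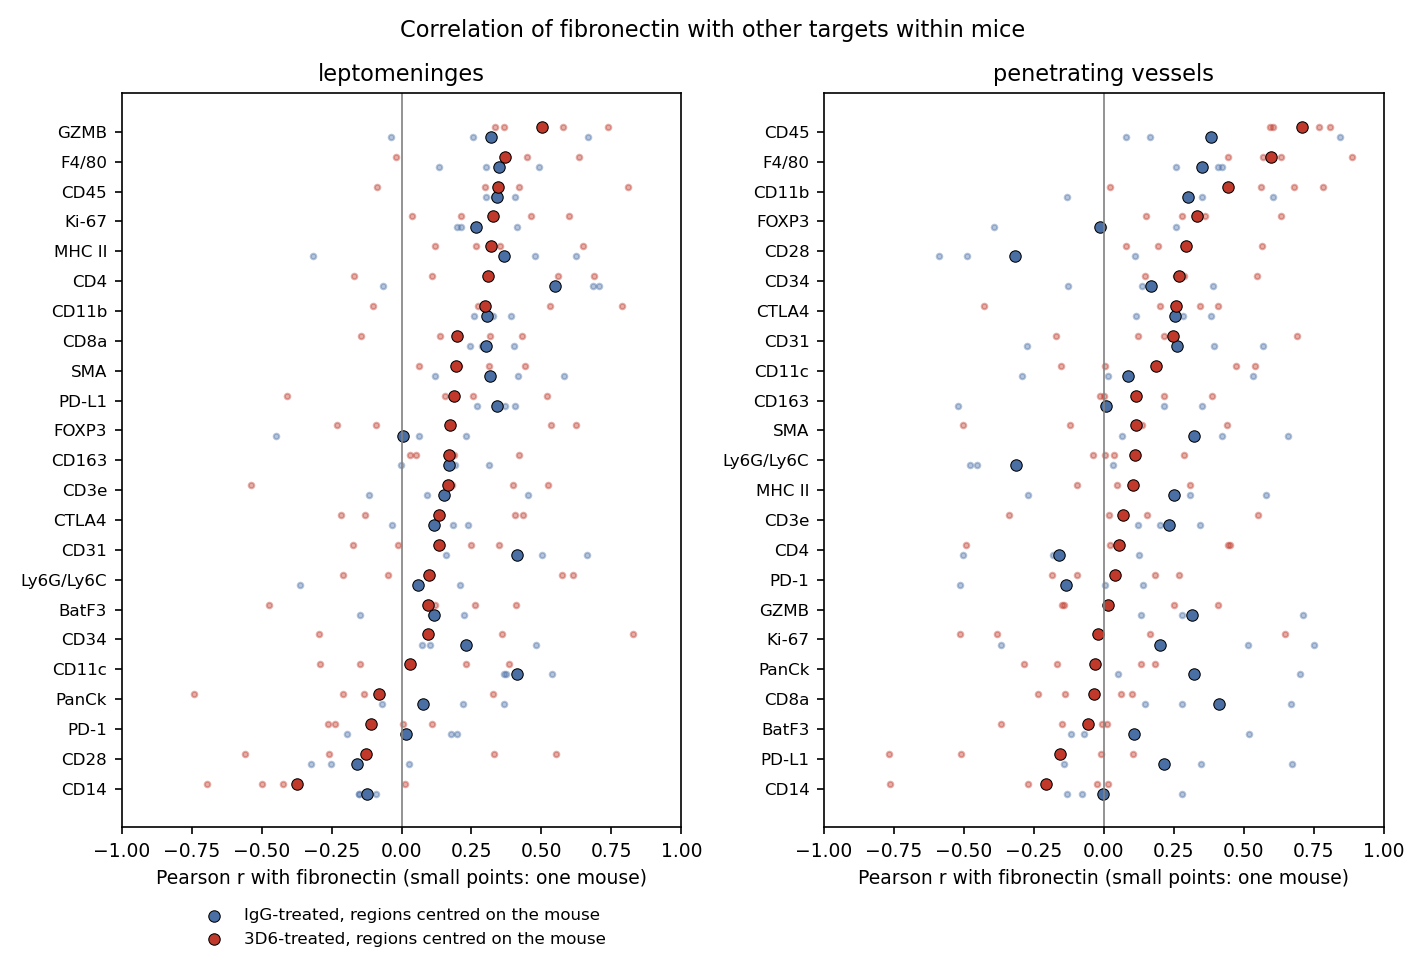
Pearson's r of fibronectin with 23 of the other 24 targets (rows, ordered by the 3D6 group) over regions centred on the mouse (large points) and within each mouse (small points), for the leptomeninges (left) and penetrating vessels (right); IgG in blue, 3D6 in red. CD45 (0.708), F4/80 (0.597) and CD11b (0.445) stand at the top in the penetrating vessels of 3D6-treated mice, and GZMB (0.504) in their leptomeninges.

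Among the lowest partners on penetrating vessels of 3D6-treated mice were CD14 (-0.207) and the checkpoint ligand PD-L1 (-0.156). CD14 was thus among the lowest 3 in 3 of the 4 combinations of site and group. Of the 24 targets, the number with a positive r in every mouse was 10 and 6 in the leptomeninges of the IgG and 3D6 groups, and 8 and 6 on penetrating vessels. The IgG counts ask for 3 mice to agree and the 3D6 counts for 4, so the groups cannot be compared by them. Only SMA was positive in all 7 mice in the leptomeninges together with Ki-67, a protein of dividing cells, and on penetrating vessels only CD45 and F4/80 were. The Ki-67 probe averaged -0.11 in the leptomeninges over all regions, at the level of the negative controls.

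Whether a partner correlation differed between the groups was tested on the r of each mouse, as Fisher's z, by exact permutation of the mice for each of the 24 targets of a site. None passed after adjustment over the 24 in the leptomeninges (0%) or on penetrating vessels (0%). At an unadjusted p under 0.05 in this permutation test there were 0 in the leptomeninges and 1 of 24 (4.17%) on penetrating vessels, CD8a, with a mean z of 0.42 in the IgG group and -0.05 in the 3D6 group (p = 0.029). The mean z of F4/80 was 0.38 and 0.82 (exact permutation p = 0.057, adjusted p = 0.46), with every 3D6-treated mouse above every IgG-treated mouse. After adjustment over 24 targets even the smallest p that 7 mice allow can pass only if many targets reach it.

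SMA, the actin of vascular smooth muscle, was lower in the group where fibronectin was higher. In the leptomeninges SMA was lower in 3D6-treated mice (-1.79, SE 0.43, adjusted p = 0.011 in limma), and CD45 (2.46), CD11b (1.59) and F4/80 (1.48) were higher, with adjusted p of 0.00096, 0.019 and 0.011. All 4 kept their direction with the housekeepers as reference, but CD11b (0.75, adjusted p = 0.21 in limma) and F4/80 (0.65, adjusted p = 0.22) then no longer passed. Without mouse 29 neither SMA nor CD11b passed (both adjusted p = 0.062 in limma), and without mouse 49 CD11b did not (adjusted p = 0.068). Within the mice SMA had an r with fibronectin of 0.316 in the IgG group and 0.193 in the 3D6 group, from 0.063 to 0.582 in the 7 mice, close to the medians of 0.249 and 0.171 over all 24 partners, which share a denominator. The other vessel wall proteins, CD31 and CD34, did not pass, so that 1 of the 3 on that list was lower, against 4% of the panel, and none higher.

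Of the 7 myeloid proteins, 2 were higher with 3D6 in the leptomeninges, against 16% of the panel, and none lower, with a median difference of 0.78 against 0.57 over all 25 targets. In 3D6-treated mice the step from penetrating vessels to leptomeninges was 2.84 for fibronectin, 1.63 for CD45, 1.17 for F4/80, 1.17 for CD31 and 0.73 for CD11b, each past the adjusted threshold in limma. The CD11b step lost its call in 12 of 20 alternatives, among them the housekeepers (adjusted p = 0.078), no division (adjusted p = 0.13), the run as a block (adjusted p = 0.10) and leaving out mouse 29, 72, 77 or 83 (adjusted p from 0.060 to 0.10). The CD31 step lost it in the fit that blocked on the run (adjusted p = 0.051) and in the unmoderated test with Holm-Sidak adjustment (adjusted p = 0.23). The myeloid list had a median within-mouse r with fibronectin of 0.168 and 0.099 in the leptomeninges of the IgG and 3D6 groups, and 0.087 and 0.114 on penetrating vessels. The medians of all 24 partners were 0.249, 0.171, 0.207 and 0.106 in the same order. The list thus lay below them except on penetrating vessels of the 3D6 group, where it was close. The highest partners on penetrating vessels of the 3D6 group were thus single proteins, CD45, F4/80 and CD11b, and not the myeloid list as a whole, to which CD45 does not belong. FOXP3 (0.331), CD28 (0.294) and CD34 (0.269) were also positive in all 4 mice there, the first 2 from probes below the negative controls on average.

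**Figure D5:**
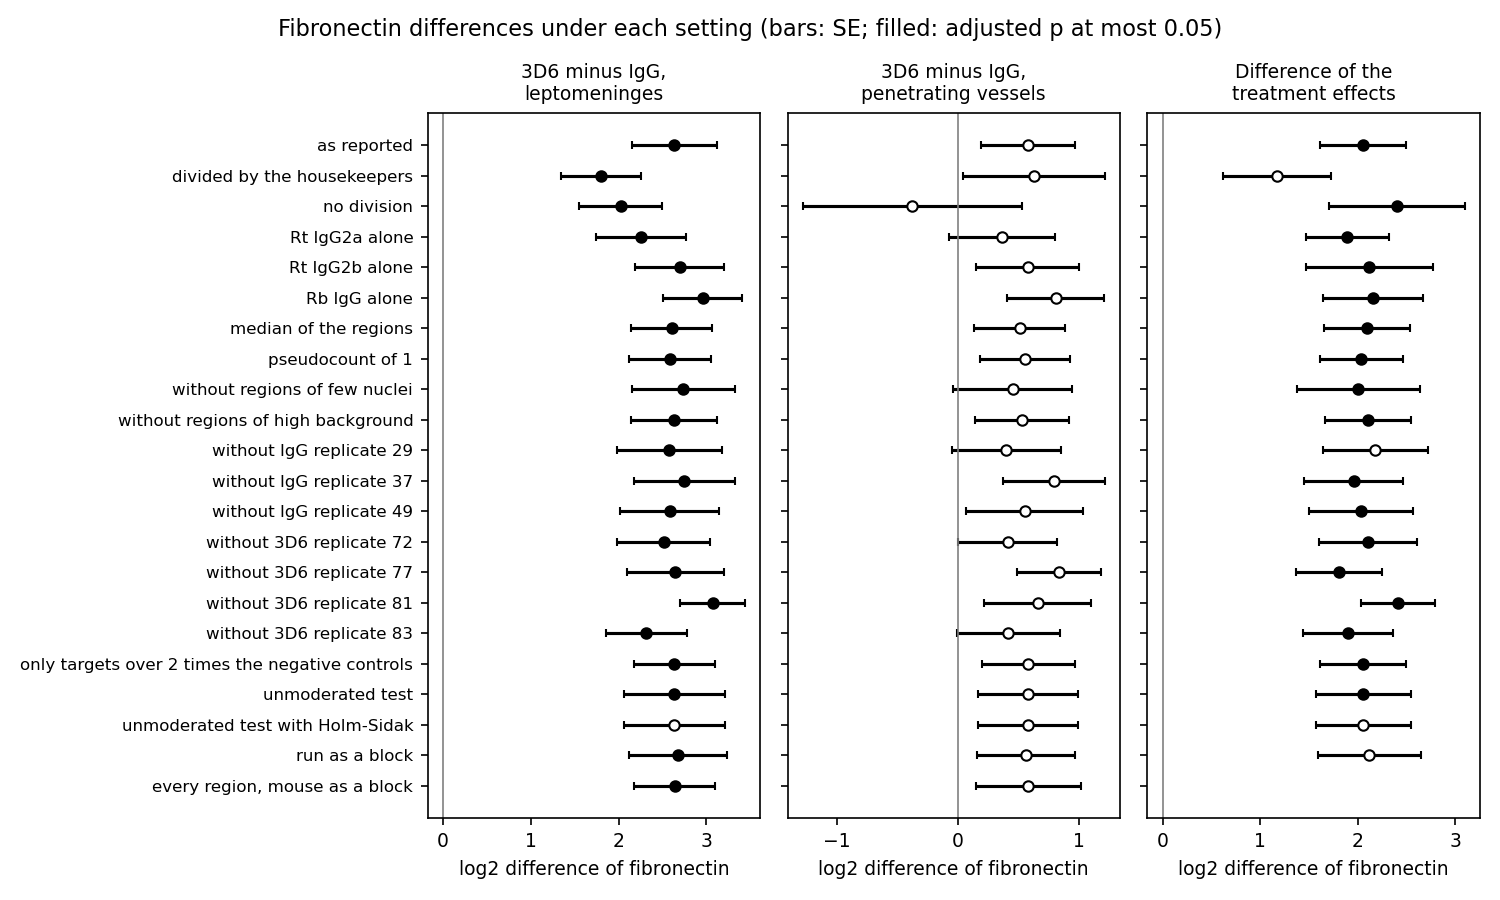
The log2 difference of fibronectin (x axis; bars, SE from limma or the fit named) between 3D6-treated and IgG-treated mice in the leptomeninges, on penetrating vessels, and for the difference of these effects, under each setting (rows); filled points have an adjusted p of at most 0.05. The leptomeningeal difference stays between 1.80 and 3.07, the penetrating one between -0.38 and 0.84, and the difference of the effects between 1.17 and 2.41.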

How the data were processed

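Formalin-fixed brain sections of 3 IgG-treated and 4 3D6-treated mice were profiled by the authors with the GeoMx protein assay. The deposited counts already carry the authors' calibration and positive-control factors, so that 0 of them are whole numbers, and count models were not run. Nuclei counts, the positive-control ratio and warnings were taken from the deposited summary of regions. The authors' z-scored tables were not used. Each count was divided by the geometric mean that the 3 negative control antibodies had in its region, put on the log2 scale and averaged per mouse, the unit of replication. The 25 targets were fitted in limma 3.58.1 (R 4.3.3) with Benjamini-Hochberg adjustment and a threshold of 0.05. The sites were paired within a mouse. Exact permutations used all 35 splits of the mice. The fits and correlations were tested on simulated data. The protein, the lists and the tests were chosen with earlier results of these data known.

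The proteins named are fibronectin, the 3 highest and 3 lowest partners at each site in each group, CD45, CD11b, F4/80 and SMA, and members of the vessel wall and myeloid lists past the threshold. Ki-67, CD34, PanCk and the mean levels of markers were added after their values were seen. The values of 1 partner that the rule names are not reported here. No source used here says whether the mice were littermates. A mouse that the table's header states was removed is not analysed here. The study's methods give sections of 10 μm and the labels 5 μm. Alternatives changed the reference, the average over regions, the pseudocount (0 or 1), the targets (all, or those over 2 times the controls), the regions, the moderation and adjustment, the mice included, and blocking on the run. Leaving out the highest region of mouse 72 was added after the data were seen.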

Additional observations from a re-analysis of the deposited data

Results flagged for a closer look

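The treatment difference of fibronectin differed between the leptomeninges and the penetrating vessels by 2.06 on the log2 scale in a test of the difference itself (limma on the paired site differences of 3 IgG-treated and 4 3D6-treated mice, adjusted p = 0.018). All 4 3D6-treated mice had a larger step between the sites than all 3 IgG-treated mice. The negative controls, by which every value is divided, averaged 4.46 (leptomeninges) and 4.58 (penetrating vessels) log2 counts in the IgG group, against 3.84 and 3.63 in the 3D6 group. The 4.58 is carried by mouse 37 at 6.49, with mice 29 and 49 at 3.47 and 3.79, and the part of the negative controls in the difference was not tested beyond the settings given below. Among 15 values of the 4 3D6-treated mice checked for a mouse far from the other 3 (fibronectin means, SDs, median counts, site steps and correlations), 0 had one.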

How the results depend on the processing

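The leptomeningeal treatment difference kept its direction under all 21 settings and passed in 20, with 2.64 losing its call only in an unmoderated test with Holm-Sidak adjustment (adjusted p = 0.13), and ran from 2.32 to 3.07 when a mouse was left out. The penetrating difference passed in none, ran from 0.40 to 0.84 without a mouse, and turned to -0.38 with no division. The site step of the IgG group passed on division by the housekeepers (1.75) or by Rt IgG2a alone (1.09), and its range without a mouse was 0.66 to 0.88, past the threshold only without mouse 81 (adjusted p = 0.044), whose removal changes the shared variance. The site step of the 3D6 group passed throughout (2.59 to 3.19 without a mouse). The difference of the treatment effects (1.81 to 2.41 without a mouse) was lost with the housekeepers (1.17), Holm-Sidak (2.06), the run as a block (2.12) and without mouse 29 (2.18), the cause of which was not tested. Another reference shifts all 25 targets alike, their leptomeningeal median from 0.57 to -0.27 with the housekeepers, so the gap of 2.06 to fibronectin is fixed by construction.

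The difference of the within-mouse SD in the leptomeninges was 0.31 with the housekeepers and 0.35 with no division, neither at an unadjusted p under 0.05 (exact permutation). It was 0.52 without regions of few nuclei, which removes mouse 37 from this site, and 0.48 to 0.58 without a mouse. In both of these cases 6 mice are left, which cannot pass. On penetrating vessels the difference was 0.39 to 0.64 without a mouse, and -0.066 with no division, where the high-background regions of mouse 37 enter undivided. It was 0.37 without the highest region of mouse 72, at an exact permutation p of 0.029 that is not adjusted over the 25 targets. With no division r with CD45 was 0.822 and 0.947 in the leptomeninges and penetrating vessels of the IgG group and 0.838 on penetrating vessels of the 3D6 group, where the medians of all 24 partners rose to 0.722, 0.924 and 0.488. In the IgG leptomeninges it was 0.766 with the housekeepers, 0.428 pooled, 0.132 without the 2 extreme regions, 0.263 without few nuclei and 0.304 to 0.369 without a mouse. On penetrating vessels of the 3D6 group it was 0.503 pooled, 0.567 without the 2 extreme regions and 0.679 to 0.743 without a mouse. In the IgG group there it was 0.120 to 0.513 without a mouse, and in the 3D6 leptomeninges 0.230 to 0.494. Of 385 partner values under alternatives, 56 moved by more than the SD over mice. The number of targets past the threshold ran from 1 to 12 for the leptomeningeal difference (5 as reported), from 2 to 11 for the site step of the IgG group (9), from 3 to 9 for that of the 3D6 group (7) and from 0 to 9 for the difference of the effects (7), with the 2 reached without mouse 49 or with Holm-Sidak and the 0 with the run as a block, with Holm-Sidak or without mouse 29. No paired analysis was possible between the treatment groups, apart from the run as a block, because their mice share no replicate number. With 3 and 4 mice, only large differences can pass.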
